A study of Drosophila melanogaster with 2 samples.

Results

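The peaks described here belong to the larger, optimal set of a binding experiment and share no base with its smaller, conservative set. In whole Drosophila melanogaster embryos of 8 to 24 h, 2 biological replicates were immunoprecipitated with an antibody against green fluorescent protein (GFP). All embryos were of 1 strain, CG32532-GFP, in which an insertion supplies CG32532 fused to eGFP, and there is no second genotype, treatment or time. The series has 2 sets of peaks that are not of 1 replicate, a conservative set of 5325 and an optimal set of which 7717 lie on the chromosomes X, Y and 4 or the arms 2L, 2R, 3L and 3R. Of these 7717 peaks, 5162 shared at least 1 base with a conservative peak. The other 2555 are the members (33.1%, exact 95% binomial interval 32.1 to 34.2%), chosen by the measured peaks themselves. Where members overlapped each other they merged into 2418 regions, and their widths sum to 912 kb.

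CG32532 encodes a predicted paired-class homeodomain protein. Proteins of this class read a TAAT core in DNA, and many bind as pairs to a palindrome of TAAT and ATTA with 2 or 3 bases between. The irreproducible discovery rate (IDR) ranks peaks by how well their order repeats between 2 lists, and the deposited score of 0 to 1000 is higher for peaks that repeat better. By common practice a conservative set compares true replicates, while an optimal set may also take the comparison of pooled pseudoreplicates, which are random parts of the pooled reads. The labels do not say how the 2 sets were made here. Neither the tissue nor the number of cells bound is known in a whole embryo, so binding in few cells and weak binding in many cannot be told apart.

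The bases at the summits of the strongest members on dm6 are shown first, since they head the order of strength. Each window is 60 bases of the plus strand of the RefSeq copy of the genome, 5′ to 3′, and the ranks by pooled signal are 1, 2, 3, 4, 7 and 9. The members of ranks 5, 6 and 8 lie on an arm of which no sequence is shown, so the windows are not the whole of the strongest 9. Capitals mark a match to any of 15 motifs searched on both strands, and none of these 6 windows has one. Those nearest to CYLD and Phs lie within 500 bp of a gene start, and the other 4 lie in introns.
Tsp96F (chr3R:25879602-25879661): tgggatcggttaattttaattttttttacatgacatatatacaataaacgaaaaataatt
CYLD (chr2L:10299941-10300000): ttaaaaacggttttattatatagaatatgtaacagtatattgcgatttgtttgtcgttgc
TfAP-2 (chr3L:21604472-21604531): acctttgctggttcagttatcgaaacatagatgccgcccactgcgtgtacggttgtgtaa
CG13482 (chr3L:14304014-14304073): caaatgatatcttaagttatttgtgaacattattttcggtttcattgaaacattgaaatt
Phs (chr3L:15619764-15619823): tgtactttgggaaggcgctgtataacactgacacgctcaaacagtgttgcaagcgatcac
hzg (chr3L:16001467-16001526): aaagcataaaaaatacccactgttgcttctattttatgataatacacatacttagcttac
Of the 60 bases, 48 at Tsp96F and 46 at CG13482 were A or T, against 31 at TfAP-2 and at Phs. The windows shown thus range widely in their share of A and T.

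The next 8 windows are for the motifs whose share differed between members and conservative peaks. Each is of the strongest member that holds the motif, with members on the arm of which no sequence is shown again passed over. The first was taken for TAATTA, the second for TAAT and ATTA with 2 bases between and the third for the pair with 3 bases between. The Ltn1 window was taken for TATCGATA and the Adsl window for GGTCACACT. The mdy window was taken for GAGAG, that of Abd-B for CACCTG and the last for TATAAA. The windows named for Abd-B and CG43759 lie in introns and the other 6 within 500 bp of a gene start.
gw (chr4:660056-660115): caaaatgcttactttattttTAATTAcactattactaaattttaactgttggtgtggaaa
colt (chr2L:2769968-2770027): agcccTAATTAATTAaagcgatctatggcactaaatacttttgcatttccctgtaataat
CRAT (chr3R:6374175-6374234): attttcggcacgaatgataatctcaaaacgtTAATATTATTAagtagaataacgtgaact
Ltn1 (chr3L:19552277-19552336): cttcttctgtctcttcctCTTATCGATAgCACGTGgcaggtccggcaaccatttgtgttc
Adsl (chr3R:17021119-17021178): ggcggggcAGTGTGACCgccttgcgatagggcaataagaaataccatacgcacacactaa
mdy (chr2L:16816135-16816194): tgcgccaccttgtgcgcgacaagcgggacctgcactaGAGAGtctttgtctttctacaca
Abd-B (chr3R:16919217-16919276): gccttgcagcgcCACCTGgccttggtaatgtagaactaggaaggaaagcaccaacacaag
CG43759 (chrX:18951635-18951694): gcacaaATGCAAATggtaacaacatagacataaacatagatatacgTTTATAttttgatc
In the colt window the pair with 2 bases between contains TAATTA. In the Ltn1 window, TATCGATA shares bases with GATAAG on the other strand and a CACGTG follows it. The CG43759 window holds the octamer ATTTGCAT as well, on the other strand. TATCGATA is the site of the promoter factor DREF, GGTCACACT a core element of fly promoters, GAGAG the GAGA element, CACCTG an E-box of the kind Snail binds and TATAAA the TATA box. The members at colt, a mitochondrial carrier gene, and at Ltn1, a ubiquitin ligase gene, had 26.8 and 24.6 in replicate 1 and 112 and 126 in replicate 2. The member at Adsl, of purine synthesis, had 21.8 and 116. They were at 0.321 to 0.396 times the median conservative peak of replicate 1 and near that of replicate 2, at 0.962 to 1.09 times. These letters describe the windows and do not show that a factor was bound there.

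Members were weaker than conservative peaks, as the way they were chosen makes likely, so this is a description and not a test. The pooled signal of members had a median of 89.3 (quartiles 78.5 and 106, range 2.12 to 349). Conservative peaks had a median of 177 (quartiles 123 and 304, range 2.02 to 4565). Only 64 members (2.51%) lay above the median conservative peak. A signal under 20 was seen in 100 members, of which 98 were overlapped by a ranked pooled peak of 20 or more, and such low values were also present in 2.18% of conservative peaks. The files do not state what the signal measures, so it is used here to order peaks and as a multiple of a median.

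The thresholded sets hold only scores of 830 or more. The highest score of 1000 was reached by 1365 members (53.4%) and by 79.3% of conservative peaks. The list behind the conservative set was taken to be the ranked list that holds every conservative peak with the same place and score, a match and not a statement of the labels. That list has 5461 entries at or over the threshold, against 5325 in the set. In it, 164 members (6.42%) had no overlapping entry, and the others had a median score of 525. There, 608 members (23.8%) scored from 700 to 829, 850 (33.3%) from 415 up to those and 929 (36.4%) from 0 to 414. The scores were spread unevenly, with 444 members (17.4%) at 110 or less and a broad rise towards the threshold. A further 4 members overlapped an entry at or over the threshold there. At the other threshold, the 78 members within 10 points above 830 in their own list had a median pooled signal of 75.8, and the 89 listed peaks within 10 points below had 76.8. Members just inside and peaks just outside were of like strength.

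**Figure D1:**
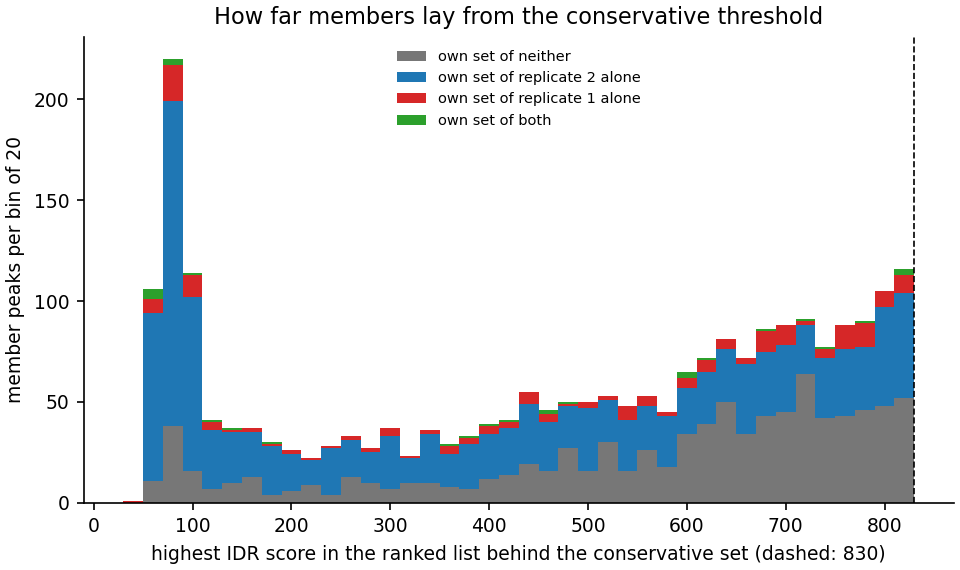
Stacked bars count members (vertical axis) by their highest IDR score in the ranked list behind the conservative set (horizontal axis, bins of 20; the dashed line is 830), coloured by which replicate's own thresholded set holds them. The 444 members at 110 or less stand apart from the rise towards the threshold. Replicate 2 alone holds 332 of them, against 1352 of all 2555 members (52.9%).

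Each replicate also has a thresholded set of its own. The set of replicate 1 held 232 members (9.08%), against 49% of all optimal peaks, and that of replicate 2 held 1382 members (54.1%), against 78.1% of all optimal peaks. Members held by replicate 2 alone were the largest group, 1352 (52.9%). Neither set held 971 (38%), replicate 1 alone held 202 (7.91%) and both held 30 (1.17%). The members thus leaned to replicate 2, whose own set is also the longer of both, with 6850 peaks against 3957. The rule uses the same libraries, so these shares are not tested.

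Signals in each replicate are given as multiples of that replicate's median conservative peak, which was 67.7 in replicate 1 and 116 in replicate 2. Members had a median of 0.459 in replicate 1 (2364 with an entry in its ranked list, 191 with none) and of 0.52 in replicate 2 (2504 with an entry, 51 with none). Of the 2314 members listed in both, 707 (30.6%) differed over 2-fold between replicates, 403 of them higher in replicate 2 and 304 higher in replicate 1. Of conservative peaks 7.27% did. The log2 ratio of replicate 2 to replicate 1 had an SD of 1.02 across members and of 0.55 across conservative peaks. Across members the replicates' signals had a Spearman rho of -0.57, and across the 5279 conservative peaks of 0.74, given as a description with no p. The pooled signal was close to the sum of both replicates' signals (median ratio 0.99 in members), and members span a narrow range of pooled signal. Where a sum is nearly fixed, a high value in 1 replicate goes with a low value in the other. How far this or disagreement between the replicates set the rho was not tested.

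**Figure D2:**
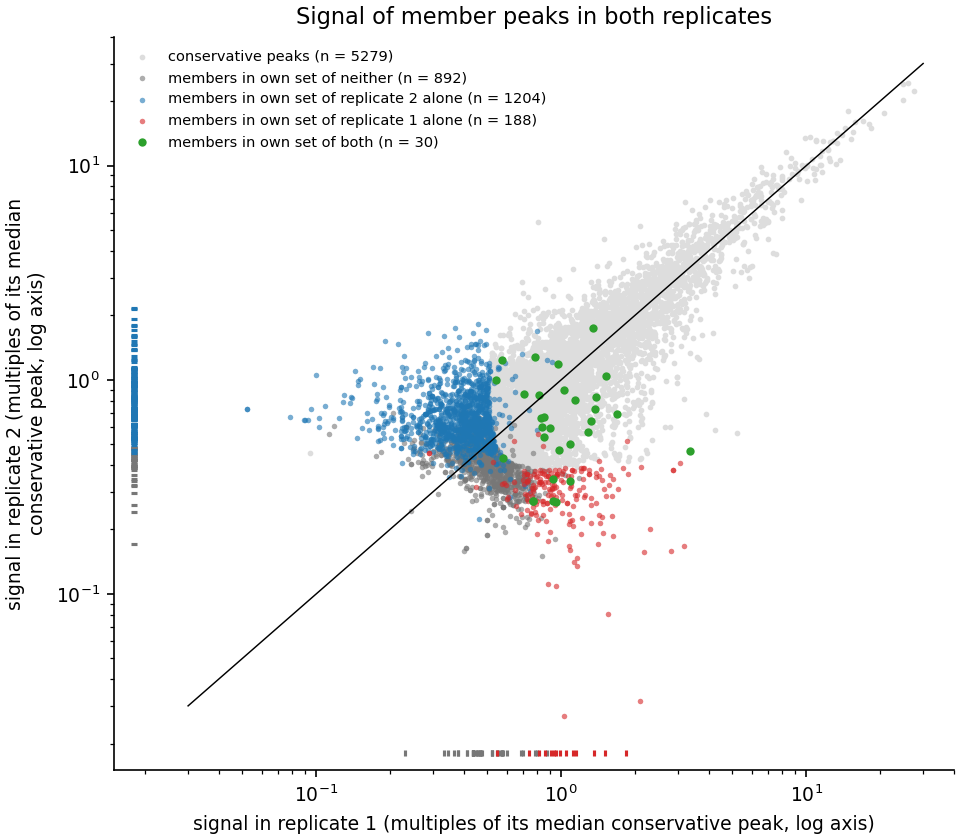
Each point is 1 peak, placed by its signal in replicate 1 (horizontal) and replicate 2 (vertical), as multiples of that replicate's median conservative peak on log axes; ticks at the left and bottom edges are members with no entry in 1 replicate's ranked list, and the line marks equal values. Of the members listed in both replicates, 1133 of 1204 held by replicate 2 alone lie above the line, and 186 of 188 held by replicate 1 alone lie below it.

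An absent entry states only that a ranked list had no overlapping peak, and not how much signal was there. The 190 members listed in replicate 2 and not in replicate 1 had, where no stronger pooled peak overlapped them, a pooled signal that exceeded that of replicate 2 by a median of 29.5 (180 members). For the 50 listed in replicate 1 alone the excess over replicate 1 was 51.6 (47 members). The scale of the signal is not stated, so this excess does not measure signal in the replicate without an entry. The cause of the excess was not tested.

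Most of the strongest members lacked an entry in 1 replicate. Of the 15 strongest, 12 had no entry in the ranked list of 1 replicate (9 in that of replicate 1, 3 in that of replicate 2), against 9.43% of all members with no entry in 1 or both. The intronic member nearest to Tsp96F, a tetraspanin gene, had a pooled signal of 349 and a signal of 207 in replicate 2, which is 1.78 times the median peak. The member 124 bp upstream of the start of CYLD, which encodes a deubiquitinase, had 320 pooled and 248 in replicate 2. Neither had an entry in replicate 1. The third, in an intron nearest to the transcription factor gene TfAP-2, had 316 pooled and 124 in replicate 1, with no entry in replicate 2. Such members were also narrow: 14 of these 15 were under 360 bp, the width of 2520 members (98.6%) and of 59.1% of conservative peaks. The 35 members under 360 bp had a median pooled signal of 231.

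Of the 2314 members listed in both replicates, 1607 (69.4%) had multiples of the median peak within 2-fold of each other. Of the 15 strongest, 3 were listed in both and 1 of these was within 2-fold. The member at Phs had 227 in replicate 1 and 53.8 in replicate 2, or 3.35 and 0.463 times the median peaks (mean 1.9, SD 2.04 over both). The member 36 bp upstream of SRPK, a kinase gene for splicing proteins, had 206 and 47.5 (3.05 and 0.41 times). The member at CG34396 was the one within 2-fold, with 91.6 and 203 (1.35 and 1.75 times). Among the 15 strongest, 9 were held by replicate 2 alone, 4 by replicate 1 alone and 2 by both. One of those 15, at the ribosomal protein gene RpL23, lay 1 bp from a conservative peak, the smallest gap of any member, and it had 159 in replicate 2 and no entry in replicate 1.

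Most members nevertheless did not lie close to a conservative peak, and 270 (10.6%) were within 500 bp of one. The rule had removed every optimal peak that shared a base with a conservative peak. The distances are thus shaped by that choice and are a description, not a test. The summit of a member was a median of 4736 bp from the nearest conservative summit, against 3213 bp between conservative summits, and 801 members (31.4%) were over 10 kb away, against 21.4% of conservative peaks.

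Members lay less often at gene starts. The summits of 1017 members (39.8%) were no more than 500 bp from a transcription start site (TSS), against 2986 conservative peaks (56.1%; odds ratio 0.518, two-sided Fisher's exact test, adjusted p = 4.35e-41 over 5 classes). The other classes were all more frequent among members. Coding exons held 121 members (4.74%) and 49 conservative peaks (0.92%; odds ratio 5.35, exact adjusted p = 4.2e-25), untranslated or noncoding exons 3.56% and 2.03%, introns 37.8% and 30.1%, and intergenic sequence 14.1% and 10.9% (for these 3, exact adjusted p from 8.3e-05 to 1.94e-11). In the sequenced arms TSS regions take up 13.3% of bases and coding exons 13.6%, so members stood in between the conservative set and the arms in both. At protein-coding starts, 67.2% of member summits were upstream (median offset -47 bp) against 78.7% of conservative summits (-86 bp). These p-values compare 2 peak sets of the same 2 libraries, peaks are not replicates, and they do not measure the spread between replicates.

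Since members are weaker, the same comparison was made within 10 strata of pooled signal. The odds ratio for TSS was then 0.717 (Cochran-Mantel-Haenszel chi-square test, adjusted p = 8.41e-07) and that for coding exons 1.48 (adjusted p = 0.0693). In the middle signal range of members, from 78.5 to 106, coding exons held 4.46% of members and 4.09% of conservative peaks, and TSS 37.6% and 46.8%. Intergenic sequence was at 1.13 within strata (chi-square adjusted p = 0.227), introns at 1.22 (adjusted p = 0.0073) and untranslated or noncoding exons at 1.58 (adjusted p = 0.0302). With strength held equal the calls on coding exons and intergenic sequence were thus lost and the other 3 passed. Within the peaks that replicate 1's own set holds, the TSS odds ratio was 0.743 (exact adjusted p = 0.0696), which did not pass, and within those of replicate 2 it was 0.591 (adjusted p = 7.59e-17). In the peaks of replicate 1's own set, which hold 232 members, coding exons passed (5.83, exact adjusted p = 0.00343), and introns (1.04), intergenic sequence (1.52) and untranslated or noncoding exons (0.781, the other direction) did not.

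The groups by replicate were unlike in location. Of the 121 members in coding exons, 93 (76.9%) were held by neither set. The share in coding exons was 9.58% of members held by neither, 3.47% of those held by replicate 1 alone, 1.55% of those held by replicate 2 alone and 0 of 30 held by both. The share at TSS was 32.2%, 48.5%, 43% and 83.3% in that order. Differences between these groups are described without a test, since the rule and the groups rest on the same signals.

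**Figure D3:**
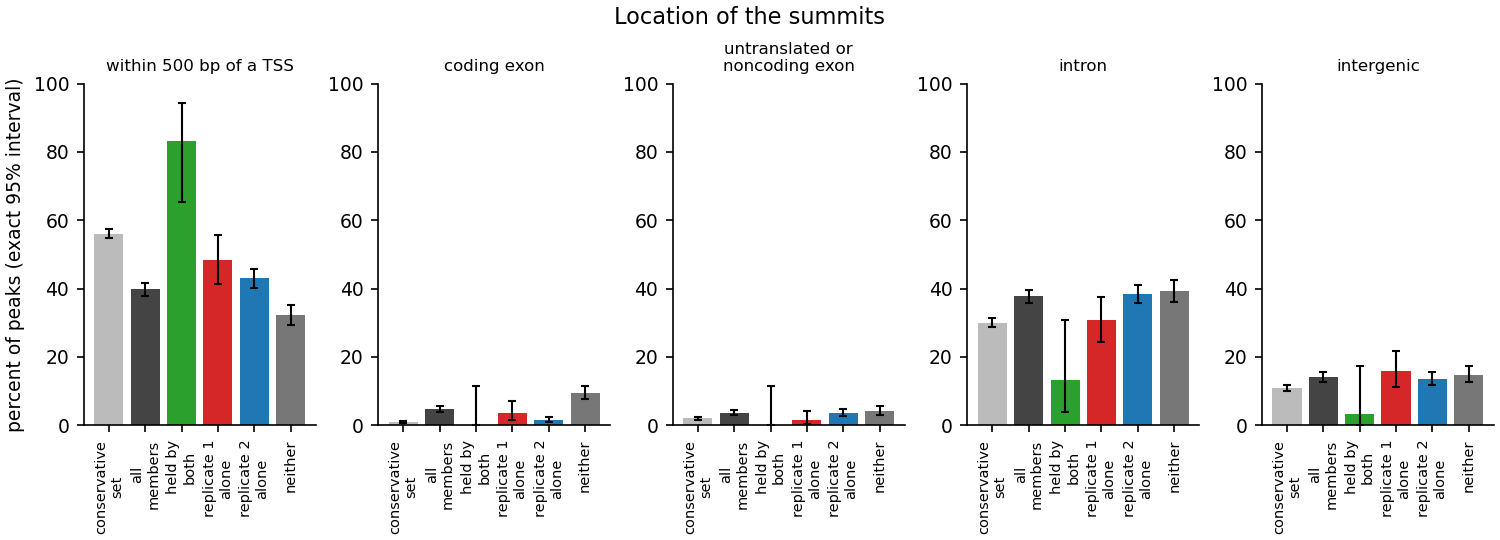
Bars give the percent of summits (vertical axis, exact 95% binomial intervals) in each of 5 location classes, for the conservative set, all members and members by the replicate set that holds them. Members held by neither own set have the lowest share at a TSS (32.2%) and the highest in coding exons (9.58%).

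Members were also richer in G and C. Over the 200 bp around the summit, the median GC content was 43.5% in members and 37% in conservative peaks, and 755 members (29.6%) reached 50% or more, against 13.2% (odds ratio 2.76, Fisher's exact p = 4.67e-65, a limit chosen after seeing the data). Within strata of pooled signal the odds ratio was 1.17 (chi-square p = 0.0367). In the middle signal range of members both medians were 44%. The median was 47.5% in members held by neither set and 40.5% in those held by replicate 2 alone, and 58.5% in members in coding exons.

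**Figure D4:**
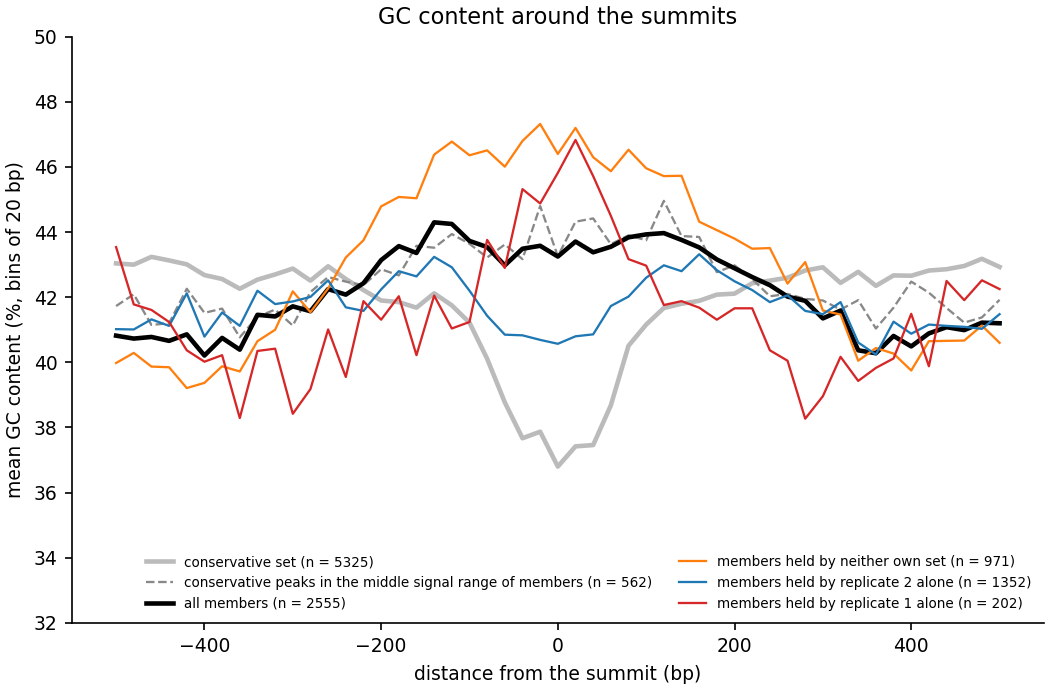
Lines give the mean GC content (percent, bins of 20 bp, vertical axis) by distance from the summit (bp, horizontal axis) in conservative peaks, conservative peaks of the middle signal range of members, and members in groups. The conservative set falls to 36.8% at the summit, where all members and conservative peaks of like signal are both at 43.3%; members held by replicate 2 alone dip to 40.6% there, from 43.2% at -140 bp and 43.3% at 160 bp.

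Of 15 motifs searched in 200-bp windows, 8 differed between members and conservative peaks at an adjusted p of 0.05, and 6 of those were rarer in members. TAATTA, the core of homeodomain sites, stood in 274 members (10.7%) and in 15.2% of conservative peaks (odds ratio 0.672, exact adjusted p = 2.82e-07). It was present in 12.4% of 200-bp windows tiled over the arms and in 9.31% of windows at protein-coding TSS. TAAT and ATTA with 2 bases between stood in 0.939% against 2.38% (tiled windows 1.25%, TSS windows 0.986%), and with 3 bases between in 1.25% against 2.61% (1.63% and 1.08%). Members were not tested against tiled or TSS windows. The exact 95% binomial intervals of the members' shares of the pairs, 0.603 to 1.39% and 0.858 to 1.76%, include both window shares. That of TAATTA, 9.55 to 11.99%, includes neither, and lies below the tiled share and above the TSS share. TAATCC, read by another kind of homeodomain, did not differ past the threshold (exact adjusted p = 0.16).

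TATCGATA stood in 56 members (2.19%) and 4.51% of conservative peaks (odds ratio 0.475, exact adjusted p = 6.37e-07), with 0.562% of tiled windows and 6.43% of TSS windows. GGTCACACT stood in 1.21% against 2.01% (exact adjusted p = 0.0242; tiled 0.2%, TSS 4.39%) and TATAAA in 22% against 32.5% (adjusted p = 2.18e-21; tiled 21.7%, TSS 26.8%). The motifs that were more frequent in members were GAGAG, in 32.3% against 25.2% (odds ratio 1.41, exact adjusted p = 7.24e-10; tiled 21.5%, TSS 24.9%), and CACCTG, in 8.02% against 6.33% (adjusted p = 0.0125; tiled 7.77%, TSS 6.64%). Within strata of pooled signal TATCGATA (odds ratio 0.489, chi-square adjusted p = 0.00203) and GAGAG (1.38, adjusted p = 1.76e-05) passed and the other 6 did not. TAATTA was at 0.941 there (chi-square adjusted p = 0.671). Within strata of GC content TATCGATA alone passed (0.528, chi-square adjusted p = 0.00042). Among summits over 500 bp from every TSS neither call held, with TATCGATA at 0.844 (exact adjusted p = 1) and GAGAG at 1.19 (exact adjusted p = 0.0677). Among summits within 500 bp of a TSS both passed, at 0.63 (exact adjusted p = 0.00714) and 1.82 (adjusted p = 9e-14). TAATTA passed near TSS (0.56, exact adjusted p = 2.24e-06) and away from them (0.761, adjusted p = 0.0308). TATAAA also passed in both (0.51 and 0.63). GAGAG stood in 36.8% of members held by replicate 2 alone and 22.3% of those held by replicate 1 alone, and TATCGATA in 1.41% and 5.45%. Among peaks of replicate 1's own set neither differed past the threshold (odds ratios 1.05 and 0.984).

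On the arms, members were spread much as conservative peaks were. X held 432 members (16.9%) and 19.5% of conservative peaks (odds ratio 0.837, adjusted p = 0.0347 over 7 arms, Fisher's exact test), and no other arm passed. The call on X was lost among peaks of replicate 1's own set (0.614, exact adjusted p = 0.0865), among those of replicate 2's own set (0.931, adjusted p = 0.655) and among members at least 500 bp from a conservative peak (0.844, adjusted p = 0.0667).

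The short, mostly heterochromatic chromosome 4 held 6 members and 3 conservative peaks (exact adjusted p = 0.155). All 6 had an entry in the ranked list of replicate 2 and none in that of replicate 1, which had 20 entries on chromosome 4 in all against 186 in replicate 2. They were nearest to gw, a gene of microRNA silencing (pooled 243, replicate 2 128), dati (191 and 161), the zinc-finger homeobox gene zfh2 with 3 members (138, 111 and 90.5 pooled) and Asator (126 and 91.9). On Y the ranked list of replicate 1 had 215 entries and that of replicate 2 had 28. The 1 member there, nearest to ARY, had 77.4 in replicate 1 and no entry in replicate 2. The cause of these splits was not tested.

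Each member was given to the protein-coding gene whose TSS was nearest, a label by distance and not a target. At least 1 member was nearest to 1843 of 13968 protein-coding genes (13.2%), and a conservative peak to 3459 (24.8%). Of the 1843 genes, 1009 (54.7%) had no conservative peak of their own. Genes with a member were long, with a median of 6.01 kb against 2.17 kb for all protein-coding genes and 3.99 kb for genes with a conservative peak. CG32532 itself was nearest to 0 members.

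The gene nearest to most members was bun, a regulator of growth of the TSC-22 family, with 10 members and 9 conservative peaks. Its strongest member, 145 bp upstream of a TSS, had 77.1 in replicate 1 and 33.6 in replicate 2. The ecdysone-induced nuclear receptor gene Eip75B had 8 members and foxo, a transcription factor gene of insulin signalling, had 7. The genes shn, psq, pnt, CG43658 and Sema1a had 6 each, and the nuclear receptor gene ftz-f1 had 5. Most of these genes are long and most also held several conservative peaks, from 2 at Sema1a and ftz-f1 to 10 at shn.

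In signalling genes the share near a member was above the 13.2% of all genes, and these lists hold longer genes. With only members in replicate 1's own set, the 3 list counts below were 1, 2 and 3 genes. With only members in replicate 2's own set they were 12, 11 and 7. Of all 1843 genes near a member, the same filters left 222 and 1096. Members were nearest to 15 of 35 genes of Wnt, Hedgehog and Dpp signalling (42.9%; median gene length 12.5 kb), 14 of 30 of Notch, EGFR and FGF signalling (18.1 kb) and 12 of 28 of JAK-STAT, Hippo and insulin signalling (6.81 kb). At shn, which encodes a transcription factor of the Dpp pathway, the strongest member lay in an intron, 2586 bp from a protein-coding TSS. This member had 30.9 in replicate 1 and 211 in replicate 2. At tkv, a Dpp receptor gene, it had 24.9 and 202, 69 bp upstream of a TSS. The strongest member nearest to dpp, the ligand, was intergenic, 13170 bp from a protein-coding TSS, and had 37.6 and 132. All 3 were higher in replicate 2 against that replicate's median peak. At hpo, the kinase of the Hippo pathway, the order was the reverse, with 147 in replicate 1 and 18.2 in replicate 2 (2.17 and 0.157 times the median peaks). At sd, whose protein is the DNA-binding partner of Yorkie, it had 30.8 and 168, and at fng, which modifies Notch, 25.4 and 160.

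Members were nearest to 9 of 20 genes of AP-1, JNK and immediate response (45%, against 65% near a conservative peak) and to 6 of 17 of the ecdysone response (35.3% against 58.8%), where 13.2% of all genes had a member. With only members in replicate 1's own set these counts were 3 and 0, and with only those in replicate 2's own set 7 and 6. Both lists hold longer genes, with median lengths of 11.4 and 33.35 kb. The members at kay, the fly Fos, were led by one with 131 in replicate 2 and no entry in replicate 1. At puc, the phosphatase of JNK, the strongest had 33.7 and 100, and at EcR, the ecdysone receptor, 82.6 in replicate 2 and no entry in replicate 1. All 6 ecdysone genes with a member also had a conservative peak.

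Among developmental regulators, 4 of 8 Hox genes (50%), 18 of 50 other homeobox genes (36%) and 5 of 25 paired-class genes had a member. Of all genes 13.2% did. These lists too hold longer genes, with median lengths of 30.6, 11.7 and 10.2 kb. With only members in replicate 1's own set the counts were 0, 2 and 1. With only those in replicate 2's own set they were 4, 14 and 4. The strongest Hox member was in an intron nearest to Abd-B, with 210 in replicate 2 and no entry in replicate 1. The strongest member nearest to abd-A, in an intron 27144 bp from a protein-coding TSS, had 27.9 and 165. All 4 Hox genes also had a conservative peak. Over all genes with a member, the larger part had no conservative peak of their own, as given above. On small counts that were not tested, the same held for 13 of the 18 other homeobox genes and all 5 paired-class genes with a member. These included cad, a gut homeobox gene (29.5 and 102), pros, of neural fate (15.8 and 132), eyg (25.9 and 104), Ptx1 (21.6 and 86.7) and oc (no entry and 83.4). The members named for pros and oc were intergenic, 15928 and 18179 bp from a protein-coding TSS, and those for cad, eyg and Ptx1 lay at a TSS. Of the 28 members nearest to the 18 other homeobox genes, 17 lay at a TSS, against 39.8% of all members, a small count that was not tested. The paired-class share of 20% is close to the 13.2% of all genes.

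In tissue lists, members were nearest to 9 of 16 tracheal genes (56.2%), 12 of 36 of muscle and mesoderm, 15 of 36 of axon guidance, 11 of 28 of actin and small GTPases, and 4 of 16 of glia, against 13.2% of all genes. Conservative peaks were nearest to 62.5%, 41.7%, 61.1%, 60.7% and 50% of the same lists. These lists too hold longer genes, with median lengths of 17.1, 8.85, 38.35, 5.65 and 7.3 kb in that order. With only members in replicate 1's own set the counts were 1, 0, 3, 1 and 1. With only those in replicate 2's own set they were 6, 10, 6, 8 and 3. The tracheal list was led by pyd, the fly ZO-1 (31.8 and 109), vvl, a POU factor (32.2 and 85.1), and salm (19.7 and 96.6). The member named for pyd lay in an intron, 29481 bp from a protein-coding TSS, and those for vvl and salm at a TSS. In muscle, Zasp52, a Z-disc gene, had 19.4 and 192, and in axon guidance Abl, a tyrosine kinase gene, had 126 in replicate 1 and 60.2 in replicate 2. The glial master gene repo had 56.5 and 37.9, so it was higher in replicate 1 against the median peaks. In whole embryos these labels name the genes and do not place the binding in a tissue.

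Lists of short genes had few members. Cytoplasmic ribosomal protein genes had a member at 5 of 86 (5.81%), although 67 of 86 had a conservative peak, and the 5 with a member all had one. Mitochondrial ribosomal proteins had 2 of 73, the proteasome 1 of 48, cuticle proteins 3 of 120 and histones 2 of 116. Their list medians of gene length ran from 0.529 kb for histones to 1.38 kb for the proteasome. Of all 27 lists, 20 had a share above that of all protein-coding genes and 7 below. In 23, more genes had a member held by replicate 2's own set than by replicate 1's. The same lean was present over all genes with a member, 1096 against 222, so it is not particular to the lists. The lists were chosen with earlier results of these data known, and no list was tested.

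**Figure D5:**
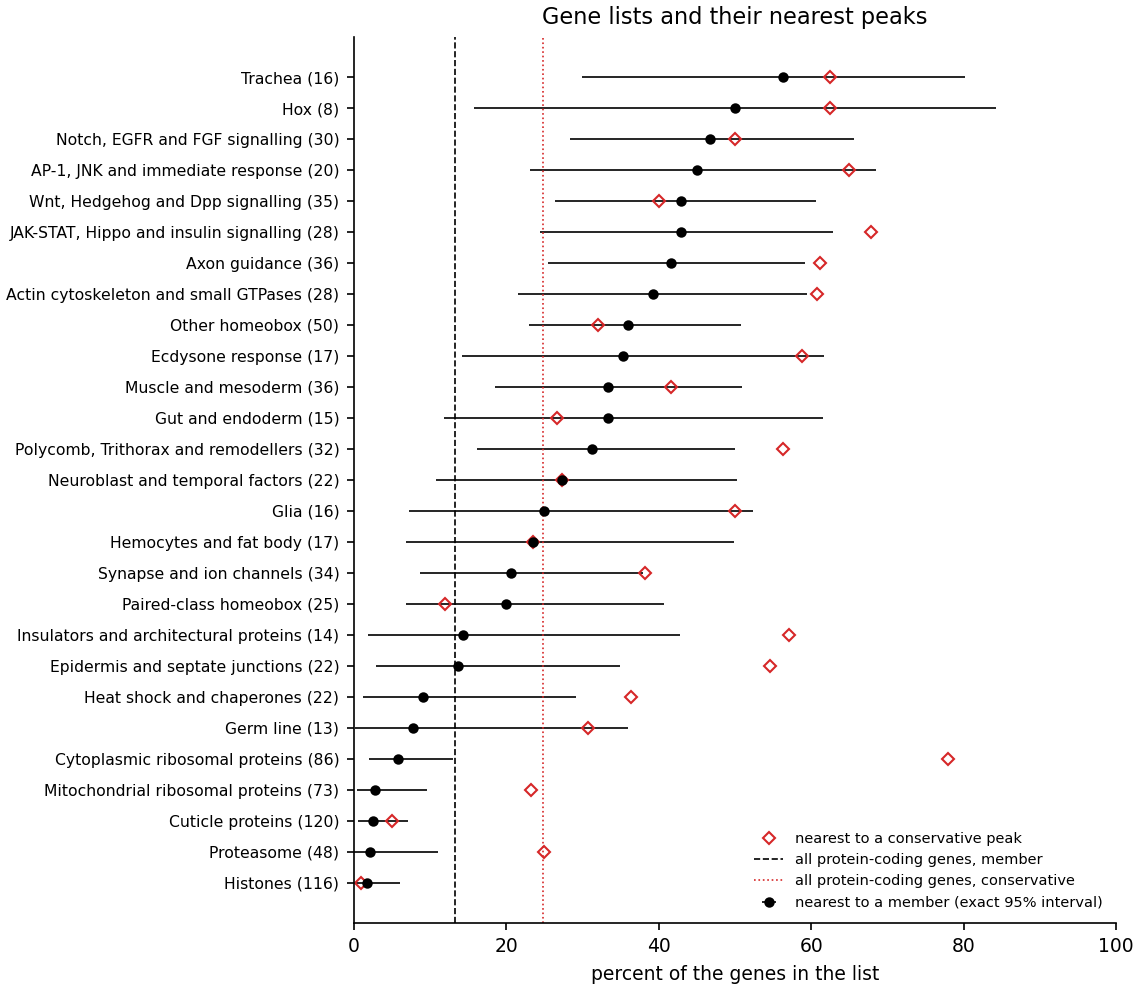
For 27 gene lists (number of genes in brackets), black points give the percent of genes nearest to a member with exact 95% binomial intervals and red diamonds the percent nearest to a conservative peak; vertical lines mark all protein-coding genes (13.2% and 24.8%). The tracheal list (56.2%) and the Hox list (50%) are highest for members, and ribosomal proteins are low for members (5.81%) and highest for conservative peaks (77.9%).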

How the data were processed

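ChIP-seq of CG32532-eGFP was represented by peak lists on dm6, per the labels. The aligner, the peak caller and their settings are not stated in the labels or files used. Peak lists give no read counts, so library depth is unknown. The deposited score is the IDR on a 0 to 1000 scale, with every thresholded set at 830 or more, and the deposited signal value is the authors' peak strength, of unstated scale. Series-level lists carry pooled values, and their 16 unnamed per-replicate columns were not used. A control named in the labels and the labels' age field, which contradicts the source name, were not used.

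Members shared 0 bases with any conservative peak. The signal in a replicate is that of the strongest peak of its ranked list overlapping by at least 1 bp. Summits were classed with the Ensembl release 115 annotation of dm6 (18277 genes), motifs were searched in 200-bp windows, and location, arms and motifs were compared with conservative peaks by two-sided Fisher's exact tests, adjusted by Benjamini-Hochberg within 5, 7 and 15 features (threshold 0.05), and within 10 strata by the Cochran-Mantel-Haenszel test. The tests were tested on simulated data. Intervals cover counting of peaks only. The members, lists and motifs were chosen with earlier results of these data known.

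Genes named are CG32532, those nearest to the 15 strongest members, the 10 nearest to most members and up to 3 per list with the strongest member; those on chromosomes 4 and Y, and the genes of the printed motif windows, were added, and 1 gene that the rule names is not reported here. Of 547 list symbols, 9 were matched through an older name and 7 were not matched. Alternatives were score 1000 only, distance from conservative peaks, signal and GC strata, TSS distance, window width, and each replicate left out. A replicate was left out by keeping only peaks that the other replicate's own set holds, and not by calling peaks anew. Leaving out pooled signals under 20 and the GC comparison were added after seeing the data. Python 3.11.15, numpy 2.4.6, pandas 2.3.3, scipy 1.17.1 and statsmodels 0.14.6 were used.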

Additional observations from a re-analysis of the deposited data

How the results depend on the processing

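Over 14 settings, 98 of 144 odds ratios kept their direction and side of the threshold, and 41 kept the direction and no longer passed. A further 2 came to pass (chromosome 4, 7.83 with score 1000 only and 50.3 within signal strata) and 3 reversed. The cause of these changes was not tested. Both ratios for chromosome 4 rest on few peaks, at most 6 members and 3 conservative peaks, so their size is uncertain. A replicate left out means here that only peaks in the other replicate's own set were kept, with the pooled peak sets unchanged. The TSS odds ratio ranged from 0.591 to 0.743 with each replicate left out, and its lowest value over all settings was 0.507. The odds ratio for X was 0.614 to 0.931 with each replicate left out and 0.844 among members at least 500 bp from a conservative peak. The 3 reversals were untranslated or noncoding exons (0.781 to 1.84 with a replicate left out, the lower without replicate 2), GGTCACACT over 500 bp from every TSS (1.01) and chromosome 4 (0 to 5.68 with a replicate left out; 0 without replicate 2, as no member there is in the own set of replicate 1). Classes that passed numbered 3 within signal strata and 1 to 5 with a replicate left out. Arms that passed numbered 2 with score 1000 only, 2 within signal strata (X and chromosome 4 in both), 0 at 500 bp or more from conservative peaks, and 0 with either replicate left out. Motifs that passed numbered 2 within signal strata, 1 within GC strata, 6 near TSS, 3 away from TSS and 1 to 7 with a replicate left out. Leaving out replicate 2 in this way leaves 232 members and leaving out replicate 1 leaves 1382, so fewer peaks were tested. Both drop the 971 members that neither own set holds. Members numbered 1365 with score 1000 only. Genes near a member numbered 868 where only summits up to 500 bp from a protein-coding TSS counted and 222 to 1096 with a replicate left out. No paired analysis was possible because there is 1 group. With 2 replicates, the spread of a single peak's signal rests on 2 values, and no counting error can be had without read counts.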
